A study of Mus musculus with 6 samples.

Results

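The insulin signalling and glucose transport genes are 10 genes that lead from the insulin receptor to glucose entry into muscle: *Insr*, *Irs1*, *Irs2*, *Pik3r1*, *Akt2*, *Tbc1d4*, *Tbc1d1*, *Slc2a4*, *Slc2a1* and *Txnip*. They were chosen by name for these roles, with earlier results of these data known. All 10 were measured, each by 1 probe set, among the 19505 genes with a symbol on the array. The study tested whether unmodulated 40 Hz (u40Hz) stimulation, a vibration with inaudible low-frequency sound given around the clock, changes glucose tolerance and strength in the SAMP-10 mouse, a male inbred model of accelerated aging kept on a normal diet. RNA came from the triceps brachii muscle by the labels and the study's methods, although its results text names the biceps. On the arrays the u40Hz-stimulation group held 3 animals, numbered 4, 10 and 11, which received 40 Hz over 5 weeks. The control group on the arrays held 3 unstimulated animals, numbered 1, 6 and 8. The paper's groups for the tests of glucose tolerance and strength were larger. The labels do not state the age of the mice on the arrays. The paper gives ages at purchase and at testing, but none at muscle collection. No source used here gives the time of day or the feeding state when muscle was taken.

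Insulin binds its receptor, which phosphorylates the docking proteins IRS-1 and IRS-2. These recruit the lipid kinase PI3K through its regulatory subunit, and the kinase AKT2 then switches off TBC1D4 and TBC1D1, the brakes that hold vesicles with the transporter GLUT4 inside the fibre. Contraction reaches the same brakes through the AMP-activated protein kinase, and skeletal muscle is the main site of insulin-stimulated glucose uptake.

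Promoter windows from RefSeq (build GRCm38.p6, 250 bases before to 50 after each gene start) were matched to 8 of the 10 genes, in 13 windows. Those of *Irs1*, *Irs2* and *Txnip* are shown, the docking protein pair because their levels ran in opposite order across the mice, and *Txnip* because it is the textbook case of a gene switched on by glucose. Motifs were searched on both strands. The capitals in *Irs1* and *Irs2* mark the E-box CACGTG, a motif bound by many basic helix-loop-helix factors. The capitals in *Txnip* mark 2 copies of CACGAG 5 bases apart, the layout known as a carbohydrate response element, with 2 CCAAT boxes and the forkhead motif TGTTTAC. The first CCAAT box and the forkhead motif of *Txnip* lie on the other strand, so they are printed as their reverse complements.
*Irs1*, chr1:82291390-82291689, minus strand: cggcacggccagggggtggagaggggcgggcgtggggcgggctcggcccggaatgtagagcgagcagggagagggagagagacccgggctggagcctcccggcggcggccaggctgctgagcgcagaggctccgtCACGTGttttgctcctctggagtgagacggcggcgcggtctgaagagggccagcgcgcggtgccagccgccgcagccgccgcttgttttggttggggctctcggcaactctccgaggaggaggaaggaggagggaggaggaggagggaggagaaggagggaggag
*Irs2*, chr8:11008880-11009179, minus strand: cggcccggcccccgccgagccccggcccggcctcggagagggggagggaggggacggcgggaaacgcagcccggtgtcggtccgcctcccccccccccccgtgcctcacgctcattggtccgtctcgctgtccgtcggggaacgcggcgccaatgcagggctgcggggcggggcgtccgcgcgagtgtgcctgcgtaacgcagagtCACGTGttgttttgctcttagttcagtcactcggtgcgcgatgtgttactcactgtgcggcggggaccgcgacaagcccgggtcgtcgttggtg
*Txnip*, chr3:96557707-96558006, plus strand: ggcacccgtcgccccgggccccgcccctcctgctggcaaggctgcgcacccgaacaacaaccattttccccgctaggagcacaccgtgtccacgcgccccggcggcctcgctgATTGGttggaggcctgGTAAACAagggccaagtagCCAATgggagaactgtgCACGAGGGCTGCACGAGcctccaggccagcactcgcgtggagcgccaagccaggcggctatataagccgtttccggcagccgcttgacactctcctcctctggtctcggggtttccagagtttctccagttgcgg

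The E-box began at base -115 from the start of *Irs1* and at base -44 from the start of *Irs2*, and it was in 7.15% of all 32851 windows of this length and in none of the other matched windows of the 10 genes. The longest runs that the *Irs1* and *Irs2* windows shared were 2 runs of 10 bases, of which 1 held this E-box. The paired CACGAG of *Txnip* ran from base -85 to base -69, and no other window held these exact letters (1 of 32851 windows). Only this spelling was searched. The count therefore does not show how many other windows hold a carbohydrate response element spelled otherwise. The CCAAT boxes of *Txnip* began at bases -137 and -102 (37.4% of all windows held at least 1), and the forkhead motif between them began at base -121 (3.65% of all windows). A match describes the letters of a window and does not show that a factor binds there.

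**Figure D1:**
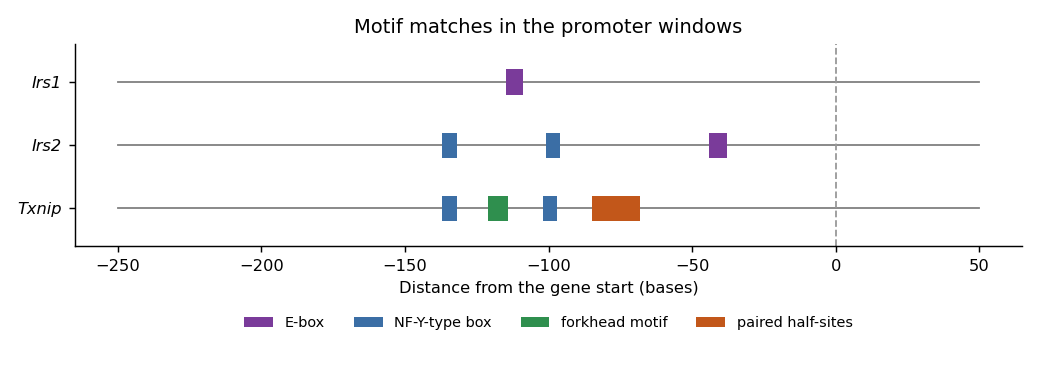
Motif matches in the promoter windows of *Irs1*, *Irs2* and *Txnip*. The horizontal axis is the distance from the gene start in bases, each grey line is 1 window, and the coloured blocks are matches on either strand (E-box, NF-Y-type box, which is the CCAAT box, forkhead motif, and the paired half-sites of the carbohydrate response element). Among these windows the exact CACGAG pair stands in *Txnip* alone, downstream of both of its NF-Y-type boxes. Other spellings of the element were not searched.

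The deposited values are log2 signals of 22206 probe sets, 1 array a mouse, with array medians between 5.53 and 5.61. Groups were compared with limma, a linear model that shares information on the spread across probe sets, with p-values adjusted over all probe sets (Benjamini-Hochberg). It called 0 probe sets at an adjusted p under 0.05 (0% of 22206, smallest adjusted p = 0.606), and 1556 at an unadjusted p under 0.05 (7.01%), of which 857 were higher (3.86%) and 699 lower (3.15%) in the u40Hz-stimulation group. The groups did not overlap, that is, every stimulated mouse lay on one side of every control mouse, in 12.4% of probe sets. The fibre and cell type markers differed between mice within the groups. The mean log2 signal of 10 slow fibre genes was 9.40, 11.65 and 11.91 in u40Hz mice 4, 10 and 11, against 12.62, 7.57 and 9.14 in control mice 1, 6 and 8. For adipocyte genes (8 measured) the mean reached 12.27 in u40Hz mouse 4, against 6.76 and 7.08 in the other stimulated animals and 6.13 to 7.93 in the control group. The defining muscle genes were bright in every mouse, with a mean of 10 fast fibre genes from 19.14 to 19.25 in the u40Hz-stimulation group and from 19.32 to 19.38 in the control group, close to the upper limit of the scale (19.93). These fast fibre ranges did not overlap, and no gene of that list had an unadjusted p under 0.05 in limma. The other lists spanned 8.72 to 8.95 against 8.19 to 8.91 for 9 measured endothelial genes, 6.53 to 7.11 against 5.71 to 7.10 for 7 Schwann and perineurial genes, 7.09 to 7.39 against 7.24 to 7.66 for 9 macrophage genes and 7.87 to 8.91 against 8.75 to 9.81 for 10 tenocyte and fibroblast genes, with the stimulated mice named before the control mice, and 5 of these last 10 genes were lower at an unadjusted p under 0.05 in limma. Of 7 red blood cell genes 3 were measured, so the values of that list are not given. Its relations with the 10 genes were still computed and are counted below. In whole muscle, fewer cells of a type and less RNA per cell cannot be told apart.

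None of the 10 genes passed an adjusted p under 0.05 in limma, none had an unadjusted p under 0.05, and none separated the groups without overlap, beside the background shares of 0%, 7.01% and 12.4%. With u40Hz stimulation the mean was higher for 7 of them and lower for 3, with a median log2 fold change of 0.17 (0.01 over all probe sets). The differences ran from -0.39 for *Slc2a4* to 0.61 for *Slc2a1* in log2 units, with adjusted p-values in limma between 0.721 and 0.997. A missed threshold with 3 mice a group does not show that the groups were alike, so the 95% confidence interval of each difference is given. An exact two-sided permutation test of 3 mice against 3 cannot give a p under 0.1.

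**Figure D2:**
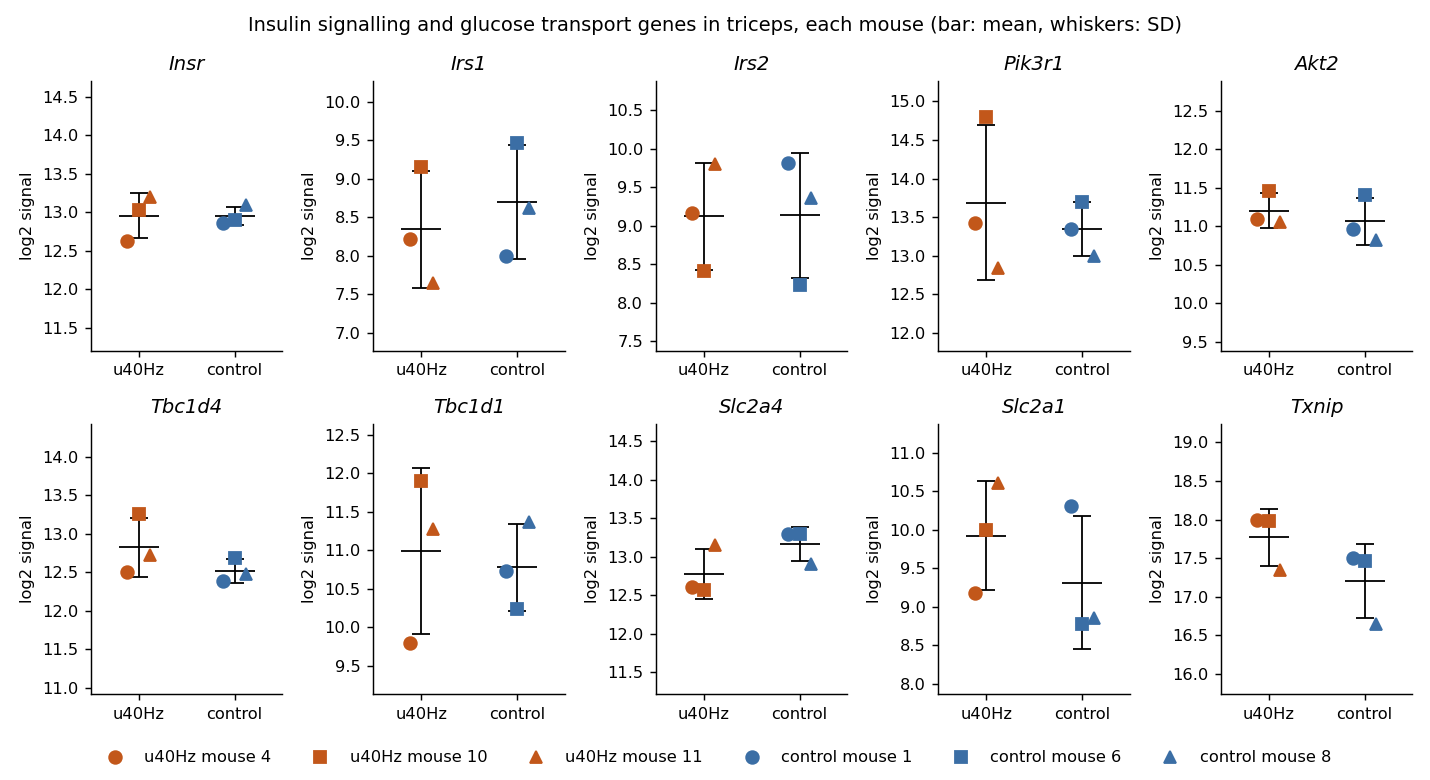
Log2 signal of each of the 10 genes in each mouse, with the u40Hz-stimulation group left of the control group. Each symbol is 1 mouse, the bar is the group mean and the whiskers are the SD (n = 3 each), and every panel spans the same number of log2 units. The groups overlap in every panel, and *Irs1*, *Irs2*, *Pik3r1*, *Tbc1d1* and *Slc2a1* spread most between mice.

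*Insr* encodes the insulin receptor. Its log2 signal was 12.63, 13.03 and 13.20 in u40Hz mice 4, 10 and 11, against 12.86, 12.90 and 13.09 in control mice 1, 6 and 8. Both groups averaged 12.95 (SD 0.29 with u40Hz stimulation and 0.12 in the control group, n = 3 each). Its spread over the 6 mice (SD 0.20) was the smallest among the 10 genes. The log2 fold change was 0.0033, with an interval from -0.48 to 0.49, or 0.717-fold to 1.40-fold.

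*Irs1* encodes the docking protein that carries most of the insulin signal to glucose uptake in muscle. Its signal on the log2 scale was 8.22, 9.16 and 7.65 in u40Hz mice 4, 10 and 11, against 8.0, 9.47 and 8.62 in control mice 1, 6 and 8. U40Hz mouse 10 and control mouse 6 were high, and the groups overlapped over most of their range. The log2 fold change was -0.35 (interval from -1.39 to 0.68, adjusted p = 0.883 from limma), and 0.0333 without control mouse 6. *Irs2*, the second docking protein, known to fall when insulin is high in liver, had a log2 signal of 9.16, 8.41 and 9.80 in u40Hz mice 4, 10 and 11, against 9.81, 8.23 and 9.36 in control mice 1, 6 and 8. Here u40Hz mouse 10 and control mouse 6 were the lowest of their groups. The group means of *Irs2* were 9.12 ± 0.70 with u40Hz stimulation and 9.13 ± 0.81 in the control group (SD, n = 3 each), and the log2 fold change of -0.01 had an interval from -1.06 to 1.04.

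*Pik3r1* encodes the regulatory subunits of PI3K that bind the docking proteins. The log2 signal of *Pik3r1* was 13.42, 14.80 and 12.84 in u40Hz mice 4, 10 and 11, against 13.35, 13.69 and 12.99 in control mice 1, 6 and 8. U40Hz mouse 10 stood above all others, and the log2 fold change of 0.34 (interval from -0.70 to 1.38) was -0.21 without it and 0.77 without u40Hz mouse 11. *Akt2*, the AKT kinase that insulin uses for glucose uptake, had a log2 signal of 11.10, 11.46 and 11.05 in u40Hz mice 4, 10 and 11, against 10.97, 11.41 and 10.82 in control mice 1, 6 and 8. The highest mice were again u40Hz mouse 10 and control mouse 6. *Akt2* had a log2 fold change of 0.14, with an interval from -0.38 to 0.66, or 0.767-fold to 1.58-fold. It was 0.0083 without u40Hz mouse 10, 0.0133 without control mouse 8 and 0.31 without control mouse 6.

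*Tbc1d4*, also named AS160, encodes the Rab GTPase-activating protein that AKT2 switches off to release GLUT4 vesicles. Its log2 signal was 12.50, 13.25 and 12.72 in u40Hz mice 4, 10 and 11, against 12.38, 12.69 and 12.48 in control mice 1, 6 and 8. Control mouse 6 lay above u40Hz mouse 4, and the log2 fold change was 0.31 (interval from -0.24 to 0.85, exact permutation p = 0.2). It was 0.0933 without u40Hz mouse 10. Its relative *Tbc1d1*, a target of both AKT and the AMP-activated protein kinase, had a log2 signal of 9.80, 11.90 and 11.27 in u40Hz mice 4, 10 and 11, against 10.73, 10.24 and 11.36 in control mice 1, 6 and 8. The stimulated mice held both the lowest and the highest value, a range of 2.10 log2 units. *Tbc1d1* had a log2 fold change of 0.21 (interval from -0.95 to 1.38), 0.81 without u40Hz mouse 4 and -0.24 without u40Hz mouse 10.

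*Slc2a4* encodes GLUT4, the transporter that insulin and contraction bring to the surface of muscle and fat cells. *Slc2a4* had a log2 signal of 12.60, 12.57 and 13.15 in u40Hz mice 4, 10 and 11, against 13.29, 13.29 and 12.91 in control mice 1, 6 and 8. U40Hz mice 4 and 10 lay below every control mouse, and u40Hz mouse 11 lay among them. The group means were 12.77 ± 0.33 with u40Hz stimulation and 13.16 ± 0.22 in the control group (SD, n = 3 each). This was a log2 fold change of -0.39 (standard error 0.23, interval from -0.92 to 0.14, unadjusted p = 0.128, adjusted p = 0.747 from limma), a ratio of 0.763. The upper end of that interval was 1.10-fold. The difference kept its sign in all 14 alternative fits, from -0.58 without u40Hz mouse 11 (unadjusted p = 0.0366 from limma) to -0.28 with the adipocyte mean as a covariate. Fat cells also express *Slc2a4*, and the adipocyte mean was 12.27 in u40Hz mouse 4. Because that mouse stood far above the others in the adipocyte mean, the covariate cannot separate fat cells from that mouse. Without u40Hz mouse 4 the log2 fold change was -0.30. Over the 6 mice *Slc2a4* had r = -0.61 with the adipocyte mean (exact permutation p = 0.147, adjusted p = 0.801). That r was -0.33 without u40Hz mouse 4 and control mouse 8. The part of fat cells in the difference was not tested.

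*Slc2a1* encodes GLUT1, the transporter of basal glucose uptake, found in muscle fibres and strongly in perineurial and vessel cells. Its log2 signal was 9.18, 9.99 and 10.60 in u40Hz mice 4, 10 and 11, against 10.31, 8.77 and 8.86 in control mice 1, 6 and 8. Control mouse 1 was the second highest of all mice, and the other control mice were the lowest. The means were 9.92 ± 0.71 with u40Hz stimulation and 9.31 ± 0.86 in the control group (SD, n = 3 each), a log2 fold change of 0.61 (standard error 0.48, interval from -0.48 to 1.70, adjusted p = 0.799 from limma). The difference was 1.11 without control mouse 1 (unadjusted p = 0.0236 from limma), 0.27 without u40Hz mouse 11, and 0.18 with the slow fibre mean as a covariate (unadjusted p = 0.513 from limma).

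*Txnip* encodes an arrestin-fold protein that binds thioredoxin and draws GLUT1 and GLUT4 away from the cell surface. Its log2 signals were 17.99, 17.98 and 17.34 in u40Hz mice 4, 10 and 11, against 17.50, 17.46 and 16.65 in control mice 1, 6 and 8. U40Hz mice 4 and 10 lay above every control mouse, and u40Hz mouse 11 lay between the control mice. The means were 17.77 ± 0.37 with u40Hz stimulation and 17.20 ± 0.48 in the control group (SD, n = 3 each). The log2 fold change was 0.57 (standard error 0.30, interval from -0.11 to 1.24, unadjusted p = 0.0889, adjusted p = 0.721 from limma), a 1.48-fold difference, and it was the smallest unadjusted p of the 10 genes. The difference was positive in all 14 alternative fits, from 0.29 without control mouse 8 to 0.78 without u40Hz mouse 11 (unadjusted p = 0.0359 from limma).

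**Figure D3:**
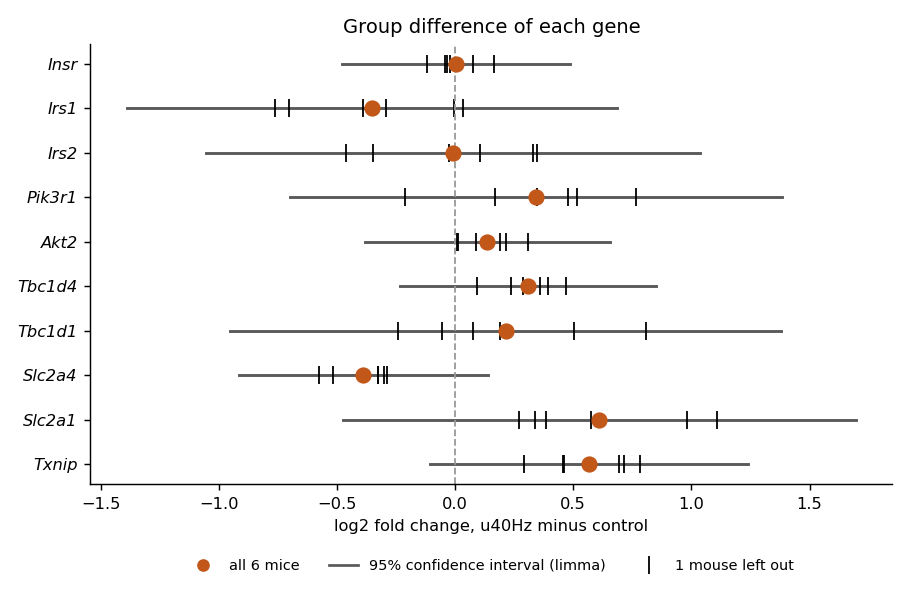
Difference between the groups for each of the 10 genes, in log2 units (u40Hz minus control). Circles are all 6 mice, grey lines the 95% confidence interval from limma and black ticks the fits with 1 mouse left out. Every interval crosses 0, and the ticks of *Slc2a4*, *Slc2a1*, *Txnip*, *Tbc1d4* and *Akt2* stay on one side of it.

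Of the 10 genes, 5 varied widely between mice, within the groups as well as over all mice. Over the 6 mice the SD of *Slc2a1* was 0.78, that of *Tbc1d1* 0.78, that of *Pik3r1* 0.70, that of *Irs1* 0.70 and that of *Irs2* 0.68, against a median of 0.27 over the 6197 probe sets with a mean log2 signal of 8 or more. The share of those probe sets that varied less ran from 95% for *Irs2* to 96.4% for *Slc2a1*. *Insr*, with 26.9% of those probe sets below it, and *Akt2*, with 43.6%, were among the steadier ones.

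Across the mice *Irs1* and *Irs2* ran in opposite order. The mouse with the highest *Irs1* in each group (u40Hz mouse 10 and control mouse 6) had the lowest *Irs2* of that group, and the mouse with the lowest *Irs1* (u40Hz mouse 11 and control mouse 1) had the highest *Irs2*. Over the 6 mice Pearson's r was -0.95 (exact permutation p = 0.0111, adjusted p = 0.608) and Spearman's rho -0.89 (exact permutation p = 0.0333, adjusted p = 0.694). Without the 2 mice farthest from the median of *Irs1* (u40Hz mouse 11 and control mouse 6) r was -0.89 over 4 mice. *Akt2* and *Pik3r1* ran together (r = 0.82, exact permutation p = 0.0319, adjusted p = 0.694, rho = 0.83, exact permutation p = 0.0583, adjusted p = 0.714). That relation rested on u40Hz mouse 10 and control mouse 6, since r was 0.33 without them. *Insr* and *Tbc1d1* had r = 0.82 (exact permutation p = 0.0444, adjusted p = 0.694, rho = 0.71, exact permutation p = 0.136, adjusted p = 0.773), and r was 0.77 without u40Hz mice 4 and 11. These were the 3 of 45 pairs with an unadjusted p under 0.05.

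*Slc2a1* followed the slow fibre genes. It was highest in the mice with slow fibre means from 11.65 to 12.62 (u40Hz mice 10 and 11 and control mouse 1), at 9.99 or more, and at 9.18 or less in the other mice. Pearson's r with the slow fibre mean was 0.94 (exact permutation p = 0.0194, adjusted p = 0.608) and Spearman's rho 0.94 (exact permutation p = 0.0167, adjusted p = 0.521), and r was 0.96 without control mice 1 and 6. The Schwann and perineurial list moved with it as well (r = 0.90, exact permutation p = 0.0181, adjusted p = 0.608, rho = 0.94, exact permutation p = 0.0167, adjusted p = 0.521, and r = 0.71 without control mice 6 and 8). *Tbc1d4* ran against the tenocyte and fibroblast list (r = -0.86, exact permutation p = 0.00417, adjusted p = 0.521, rho = -0.94, exact permutation p = 0.0167, adjusted p = 0.521, and r = -0.92 without u40Hz mouse 10 and control mouse 8). In all, 125 relations were computed, the 45 pairs of genes and the 80 of a gene with a marker list. Of these, 8 (6.4%) had an unadjusted exact permutation p under 0.05 for r. Those not named above were both for *Irs1*. Its r was -0.84 with the Schwann and perineurial list (rho = -0.94) and -0.82 with the endothelial list (rho = -0.71). The exact permutation p for r was 0.0444 in both (adjusted p = 0.694). None of the 8 passed after adjustment over the 125, and the smallest p that 6 mice allow is 0.00278. The mice come from both groups and share the normalization of their arrays.

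**Figure D4:**
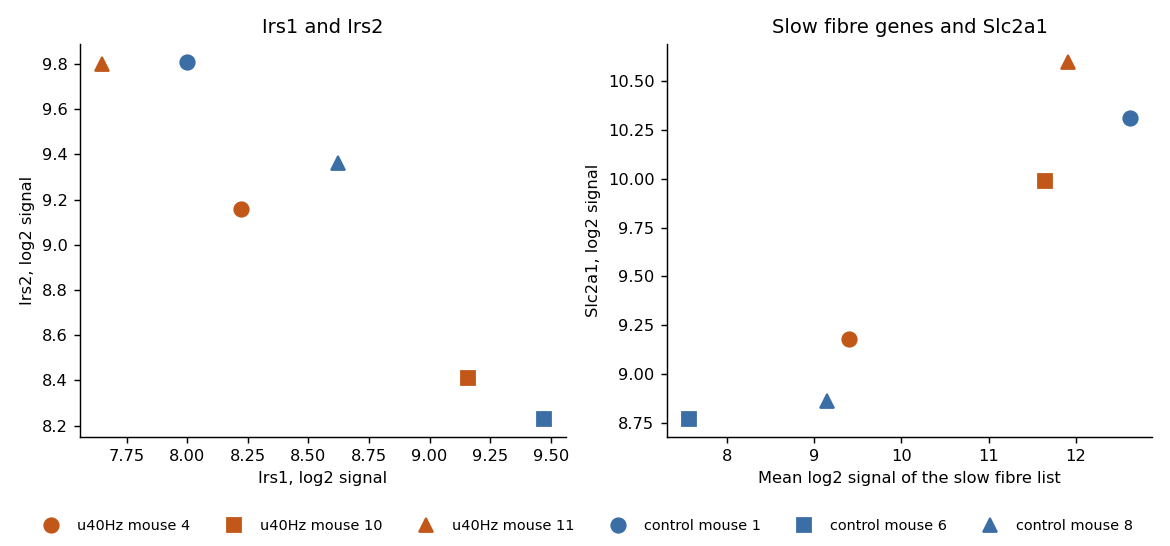
Left, log2 signal of *Irs2* against that of *Irs1*; right, log2 signal of *Slc2a1* against the mean log2 signal of the 10 slow fibre genes. Each symbol is 1 mouse (orange for u40Hz, blue for control). *Irs2* goes down where *Irs1* goes up (r = -0.95), and *Slc2a1* goes up with the slow fibre genes (r = 0.94), in both groups.

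The 5 genes most like *Slc2a1* in their course over the 6 mice, out of 5499 genes with a mean log2 signal of 8 or more, were *Padi2*, *Ppm1k*, *Adk*, *Slc41a1* and *Abcb1a*. Likeness was the root mean square difference of the 6 log2 values after each gene was centred on its mean, and it was between 0.17 and 0.22 for these. The 5 most like *Tbc1d1* were *Vgll2*, *Epha7*, *Cyld*, *Epm2a* and *Jcad*, at 0.32 to 0.36, so the course of *Tbc1d1* was matched less closely. *Vgll2*, for example, had a log2 signal of 11.06, 12.65 and 12.73 in u40Hz mice 4, 10 and 11, against 12.19, 11.49 and 12.03 in control mice 1, 6 and 8.

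Around the 10 genes, 107 further genes of the pathway were listed in 8 groups, and 97 were measured. In all, 51 were higher on average with u40Hz stimulation and 46 lower, with a median log2 fold change of 0.01, the same as over all probe sets. At an unadjusted p under 0.05 there were 3 higher and 3 lower, or 6 of 97, near the 7.01% of all probe sets. None passed the adjusted threshold. The groups did not overlap in 12 of the 97, 4 higher and 8 lower, beside the 12.4% of all probe sets.

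Among inhibitors of insulin signalling (12 measured, 6 higher and 6 lower on average, median log2 fold change 0.01) stood the gene with the smallest unadjusted p of the 97. *Ptpn1* encodes PTP1B, the phosphatase that removes the activating phosphates from the insulin receptor. Its log2 signal was 8.80, 8.45 and 8.79 in u40Hz mice 4, 10 and 11, against 9.55, 9.32 and 9.45 in control mice 1, 6 and 8. All 3 stimulated mice lay below all 3 control mice (exact permutation p = 0.1, the lowest value possible here). In limma the log2 fold change of *Ptpn1* was -0.76 (standard error 0.19, interval from -1.20 to -0.32, unadjusted p = 0.00387, adjusted p = 0.635), a ratio of 0.591. Across the 6 fits that each lacked 1 mouse it ran from -0.82 to -0.64, and 6 of 6 had an unadjusted p under 0.05. These fits reuse the same arrays, and *Ptpn1* was picked by its p, so they are not independent support. In the same list *Socs3*, a suppressor of cytokine signalling that also blocks the insulin receptor, differed by -0.47 log2 units (unadjusted p = 0.0977 from limma) at dim signals of 2.87 to 3.94. The kinase *Prkcq* differed by 0.38 log2 units (unadjusted p = 0.126 from limma).

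Among receptor partners and adaptors (11 measured, 6 higher and 5 lower, median 0.01), the adaptor *Sh2b1*, which strengthens insulin and leptin receptor signals, had a log2 signal of 6.44, 7.13 and 7.50 in u40Hz mice 4, 10 and 11, against 7.70, 7.91 and 7.65 in control mice 1, 6 and 8. The groups did not overlap, and the log2 fold change was -0.73 (unadjusted p = 0.0291, adjusted p = 0.704 from limma), or -0.44 without u40Hz mouse 4. The adaptors *Grb2* and *Gab1* had log2 fold changes of -0.40 and 0.48. Of the PI3K, PDK1, AKT and mTORC2 kinases (13 measured, 8 higher and 5 lower, median 0.04) none had an unadjusted p under 0.05. The catalytic subunit *Pik3cb* had a log2 fold change of 0.49 and the glycogen synthase kinase *Gsk3a* one of -0.41. The groups did not overlap in *Gsk3a*.

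Of 20 measured genes of GLUT4 vesicle traffic, 9 were higher and 11 lower on average (median log2 fold change -0.11, and 0.0067 without u40Hz mouse 11). *Ralgapa2*, a subunit of the complex that restrains the small GTPase RalA, had a log2 signal of 9.24, 8.51 and 8.22 in u40Hz mice 4, 10 and 11, against 7.99, 7.49 and 7.95 in control mice 1, 6 and 8. All stimulated mice lay above all control mice, and the difference was 0.85 log2 units (unadjusted p = 0.0184, adjusted p = 0.695 from limma), or 0.56 without u40Hz mouse 4. *Rab10*, a Rab protein on GLUT4 vesicles of fat cells, had a log2 fold change of -0.31 with no overlap. *Trarg1*, a GLUT4 vesicle protein abundant in fat, had the largest log2 fold change of all 97 genes, 1.84, and it rested on 1 mouse. Its log2 signal was 11.18, 7.04 and 7.22 in u40Hz mice 4, 10 and 11, against 6.90, 5.87 and 7.14 in control mice 1, 6 and 8, and the log2 fold change was 0.49 without u40Hz mouse 4. The adipocyte genes were highest in that same mouse (mean 12.27), and their part in the value of *Trarg1* was not tested.

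Among the other hexose transporters and hexokinases (11 measured, 8 higher and 3 lower on average) the median log2 fold change was 0.41. That median was 0.0267 without u40Hz mouse 4, the mouse with high adipocyte genes, with 6 of 11 genes then higher. *Hk2*, the muscle hexokinase that traps glucose in the fibre, had a log2 signal of 14.73, 14.38 and 15.12 in u40Hz mice 4, 10 and 11, against 14.73, 13.73 and 13.95 in control mice 1, 6 and 8. Control mouse 1 equalled u40Hz mouse 4, and the log2 fold change was 0.61 (unadjusted p = 0.0812 from limma). *Slc2a2*, which encodes GLUT2 of liver and pancreatic beta cells, differed by 0.76 log2 units (unadjusted p = 0.0275, adjusted p = 0.704 from limma), and *Slc2a9*, a urate and hexose transporter, one of 0.41 with no overlap. Both were dim, with log2 signals from 4.28 to 5.73. *Slc2a5*, *Slc2a6*, *Slc2a8* and *Slc2a10* were dim as well, with group means from 3.16 to 4.78. The list median of 0.41 was the value of *Slc2a9*.

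The AMP-activated protein kinase senses low cellular energy. Of its 11 measured subunits and upstream kinases, 4 were higher and 7 lower on average. Their median log2 fold change was -0.13, but -0.025 without u40Hz mouse 4 and -0.0317 without control mouse 6. *Prkab2*, the regulatory beta subunit of muscle, had a log2 signal of 14.42, 13.99 and 13.79 in u40Hz mice 4, 10 and 11, against 14.43, 14.91 and 14.61 in control mice 1, 6 and 8. The groups did not overlap, although u40Hz mouse 4 and control mouse 1 were nearly equal, and the log2 fold change was -0.58 (unadjusted p = 0.0355, adjusted p = 0.711 from limma). *Prkag3*, the gamma subunit typical of fast fibres, differed by -0.90 log2 units (unadjusted p = 0.0552 from limma) and -0.51 without control mouse 6. *Camkk2*, an upstream kinase, had a log2 fold change of -0.39 with no overlap.

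Of 11 measured relatives of *Txnip*, thioredoxin genes and glucose-sensing factors, 6 were higher and 5 lower on average, none with an unadjusted p under 0.05. Their median log2 fold change was 0.19, but 0.02 without control mouse 1 and 0.01 without control mouse 6. *Mlxipl*, which encodes the glucose-sensing factor ChREBP, had a log2 signal of 10.01, 9.89 and 9.91 in u40Hz mice 4, 10 and 11, against 9.55, 9.65 and 9.66 in control mice 1, 6 and 8. No control mouse reached the stimulated mice, which were higher by 0.32 log2 units (unadjusted p = 0.104 from limma). The mitochondrial thioredoxin *Txn2* had a log2 fold change of -0.38. *Arrdc4*, the closest relative of *Txnip*, and *Mlxip*, which encodes the muscle glucose sensor MondoA, were added after their values were seen. *Arrdc4* had a log2 signal of 7.09, 8.01 and 7.79 in u40Hz mice 4, 10 and 11, against 7.55, 7.12 and 7.24 in control mice 1, 6 and 8. *Mlxip* had a log2 signal of 10.80, 11.94 and 10.98 in the same stimulated mice, against 10.84, 12.32 and 11.62 in the same control mice. Neither *Arrdc4* nor *Mlxip* had the order of *Txnip* over the mice, and any link between their RNA levels and *Txnip* was not tested. Of 8 measured transcription regulators of *Slc2a4*, 4 were higher and 4 lower. Their median log2 fold change was 0.0017. The coactivator *Ppargc1a* differed by 0.80 log2 units (unadjusted p = 0.0404, adjusted p = 0.711 from limma) and 0.48 without control mouse 6. The myogenic factor *Myod1*, at dim signals of 4.54 to 6.57, had a log2 fold change of -0.93 (interval from -2.06 to 0.20, unadjusted p = 0.0958 from limma). The MEF2 factor *Mef2d*, one of a family that binds the *Slc2a4* promoter, had one of -0.28. Besides *Ptpn1*, the genes with an unadjusted p under 0.05 kept it in fewer of the 6 fits that each lacked 1 mouse: 4 for *Ralgapa2*, 2 each for *Sh2b1*, *Slc2a2* and *Prkab2*, and 1 for *Ppargc1a*. All of these genes were picked by their p in the same arrays.

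Of the pathway genes whose log2 fold change is given above with an unadjusted p over 0.05, besides *Trarg1* and *Prkag3*, 7 moved by over 1.5 times when 1 mouse was left out, with no change of sign. Without u40Hz mouse 11 the log2 fold change was 0.28 for *Gab1*, -0.28 for *Socs3* and 0.22 for *Prkcq*. Without control mouse 6 it was -0.26 for *Gsk3a*, 0.40 for *Hk2* and -0.16 for *Mef2d*. It was 0.72 for *Gab1* without u40Hz mouse 4 and -1.42 for *Myod1* without control mouse 1. The list medians of the receptor partners, the inhibitors, the kinases and the transcription regulators lay between -0.16 and 0.10 with 1 mouse left out, on both sides of 0 in each list.

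**Figure D5:**
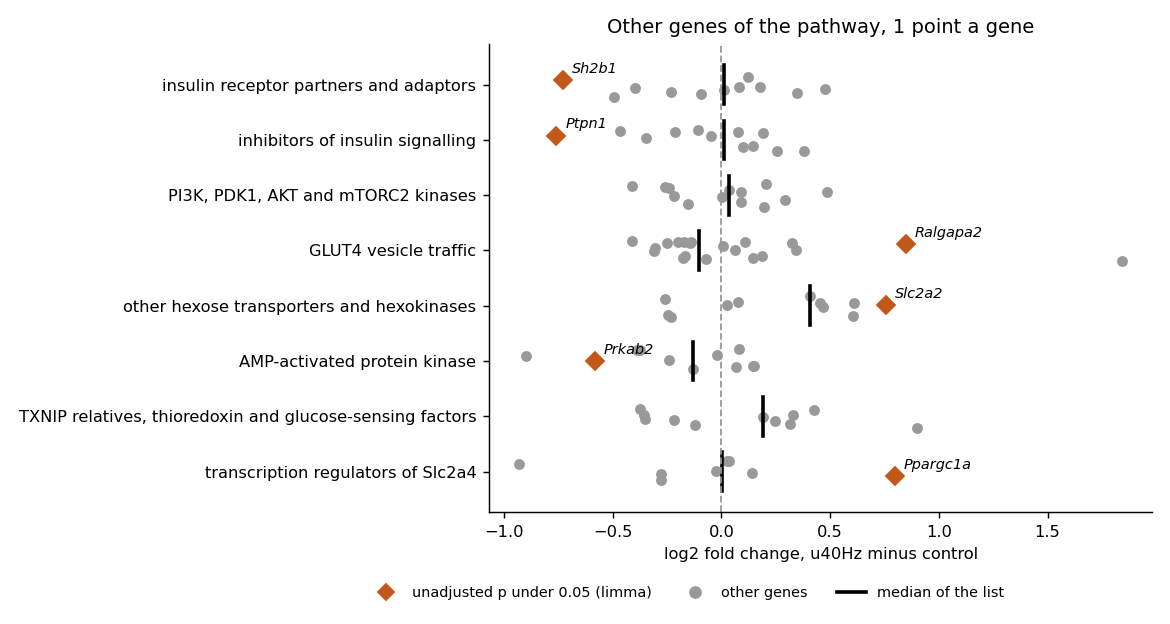
Log2 fold change (u40Hz minus control) of the 97 further pathway genes, 1 point a gene, in 8 lists. Orange diamonds are the 6 genes with an unadjusted p under 0.05 from limma, and black bars are list medians, from -0.13 for the AMP-activated protein kinase to 0.41 for the hexose transporters and hexokinases. Without u40Hz mouse 4 these medians were -0.025 and 0.0267. The median of 0.41 is the value of *Slc2a9*, a dim gene. The grey point at 1.84 is *Trarg1*, which rests on u40Hz mouse 4.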

How the data were processed

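One Affymetrix Mouse Clariom S array was hybridized per mouse, with triceps RNA of 3 stimulated and 3 control SAMP-10 mice. The log2 signals of 22206 probe sets were deposited by the authors after normalization in their Transcriptome Analysis Console software, whose summary method and genome build no source used here gives. Normalization between arrays can hide a shift shared by most genes. The log2 values were used as deposited, with gene symbols from the platform's annotation (19572 probe sets with 1 symbol). Precision is limited by the number of arrays.

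In R 4.3.3, a limma 3.58.1 model (lmFit, eBayes) of all probe sets compared the groups, two-sided, with Benjamini-Hochberg adjustment. Log2 fold changes are u40Hz minus control. The fit was checked on simulated data for returning planted shifts on average. That check says nothing about any gene on the real arrays. Relations across mice were tested with exact permutation of the 720 orders. The text names the 10 genes, from each of the 8 pathway lists the genes with an unadjusted p under 0.05 and up to 2 others with the smallest p, and the genes most like the 2 most variable of the 10. The 10 genes, the lists and the 8 marker lists were chosen with earlier results of these data known. Alternatives were another variance prior, quantile normalization, median centring, a filter on dim probe sets (mean under 6), gene means, array weights, a slow fibre or adipocyte covariate, and leaving out each mouse.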

Additional observations from a re-analysis of the deposited data

How the results depend on the processing

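Over the 14 alternative fits, 0 probe sets, the 10 genes included, had an adjusted p under 0.05 in limma (lowest for the 10 genes, 0.579). At an unadjusted p under 0.05 there were 803 of the 9958 probe sets tested with dim ones left out. The other fits had 1007 to 1838 of 22206 probe sets (22139 with gene means). Of 140 log2 fold changes, 124 kept their sign. The signs of *Slc2a4*, *Slc2a1*, *Txnip*, *Tbc1d4* and *Akt2* held in all 14. Of the 10 genes, 0 to 2 had an unadjusted p under 0.05 when 1 mouse was left out (*Slc2a4* and *Txnip* without u40Hz mouse 11, *Slc2a1* without control mouse 1), and 0 to 2 did not overlap, which fewer mice make easier (19.7% to 25.4% of all probe sets). When 1 mouse was left out, the log2 fold change of *Insr* ran from -0.12 to 0.165, *Irs1* from -0.76 to 0.0333, *Irs2* from -0.46 to 0.35, *Pik3r1* from -0.21 to 0.77 and *Tbc1d1* from -0.24 to 0.81. The log2 fold change of *Irs2* was 0.0092 with quantile normalization and 0.0455 with array weights. That of *Insr* was -0.0067 with median centring and -0.0358 with the slow fibre covariate, under which that of *Tbc1d1* was -0.0276. The cause of these sign changes was not tested. Of the probe sets at an unadjusted p under 0.05, 55.1% were higher, but 47.5% with quantile normalization and 40.3% with dim probe sets left out. No paired analysis was possible because the mouse numbers of the groups do not match. The list medians moved with single mice as well. With 3 mice a group, the width of the intervals limits what a missed threshold can show.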
